A study of Mus musculus with 16 samples.

Results

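The AP-1 and BATF transcription factors were followed in tumor-infiltrating lymphocytes (TILs) through 9 genes chosen by name, namely Jun, Junb, Jund, Fos, Fosb, Fosl2, Batf, Batf3 and Atf3. They are 9 of the 55450 rows of the deposited count table, and each symbol had 1 row. AP-1 is a dimer of basic leucine zipper proteins in which a JUN protein pairs with another JUN protein, a FOS protein or an ATF protein. Stimulation of the T cell receptor induces several of these genes through the ERK and JNK kinases, and the dimers then bind DNA together with NFAT at cytokine genes. BATF and BATF3 also pair with JUN proteins but lack the activation domain of FOS, and with IRF4 or IRF8 they occupy composite elements in T cells and dendritic cells.

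RNA was sequenced from CD4 and from CD8 TILs of subcutaneous B16F10 tumors, a mouse melanoma line, grown in wild-type (WT) C57BL/6J mice and in mice that lack the deacetylase SIRT2 in all tissues (Sirt2-/-, labelled Sirt2KO). The knockout strain carries the Sirt2tm1.1Fwa allele on a B6.129 background, and the tumor cells kept their own Sirt2 genes. The mice were young, age matched and sex matched, and no further treatment is named for them. Tumors were digested with enzymes before T cells were selected on CD3 beads, and how CD4 and CD8 cells were then parted is not given in the sources used here. Each of the 4 groups (CD4 WT, CD4 Sirt2-/-, CD8 WT and CD8 Sirt2-/-) held 4 libraries. Nothing states that CD4 and CD8 libraries of the same number came from one mouse.

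The 16 libraries held 28000949 to 62407851 counts. Of these, 13 had counts for 17730 to 22138 genes, whereas CD8 WT replicate 1 had 14411 detected genes, CD4 WT replicate 1 had 12587 and CD4 Sirt2-/- replicate 4 had 8169, all fewer than 15000. Results that rest on these 3 libraries are given with and without them. The cell labels held: Cd4 reached 384 to 620.5 CPM, the count scaled to a common library size, in CD4 libraries against 0 to 4.94 in CD8 libraries, and Cd8a reached 1004 to 1262 CPM in CD8 libraries against 0.0333 to 33.4 in CD4 libraries. Sirt2 counts were 1196 to 2272 in the WT libraries and 322 to 553 in 7 Sirt2-/- libraries, with 0 in CD4 Sirt2-/- replicate 4. CPM were taken on library sizes scaled with TMM, the trimmed mean of M values, and RPKM are CPM per kilobase of merged exons.

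Promoter sequences are shown for Junb and Batf, the members called between WT cell types, for Jun, the member with the smallest p-value between genotypes, and for Fos, the textbook immediate early gene. They are the bases before the RefSeq start (GRCm38.p6) that lie outside the annotated gene, written 5′ to 3′. Jun lies at chr4:95052223-95052472 (minus strand), Junb at chr8:84978749-84978998 (minus strand), Fos at chr12:85473640-85473889 (plus strand) and Batf at chr12:85686470-85686668 (plus strand). Capitals mark a match to TGACGTCA, the cyclic AMP response element, with at most 1 mismatch on either strand, or to TATAAA.
Jun: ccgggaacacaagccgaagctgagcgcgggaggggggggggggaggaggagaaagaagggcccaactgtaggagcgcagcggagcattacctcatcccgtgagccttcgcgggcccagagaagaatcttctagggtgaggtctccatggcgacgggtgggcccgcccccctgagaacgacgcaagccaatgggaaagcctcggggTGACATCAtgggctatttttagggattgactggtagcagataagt
Junb: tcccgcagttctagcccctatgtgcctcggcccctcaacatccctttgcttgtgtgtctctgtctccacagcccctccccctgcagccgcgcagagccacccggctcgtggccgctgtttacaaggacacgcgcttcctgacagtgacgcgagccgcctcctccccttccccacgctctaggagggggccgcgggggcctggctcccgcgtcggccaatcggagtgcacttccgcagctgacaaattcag
Fos: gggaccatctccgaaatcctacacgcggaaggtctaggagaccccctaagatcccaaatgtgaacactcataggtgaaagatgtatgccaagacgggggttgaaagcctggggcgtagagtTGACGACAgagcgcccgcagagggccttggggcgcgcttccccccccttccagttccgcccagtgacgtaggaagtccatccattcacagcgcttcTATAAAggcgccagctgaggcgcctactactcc
Batf: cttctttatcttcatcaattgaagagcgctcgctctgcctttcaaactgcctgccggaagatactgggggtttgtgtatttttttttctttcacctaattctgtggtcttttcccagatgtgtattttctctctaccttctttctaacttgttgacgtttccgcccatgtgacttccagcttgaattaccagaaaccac
All 9 members had a RefSeq promoter entry, and the 250 bases before each RefSeq start were searched on both strands. That start lay 1210, 671, 567 and 34706 bases from the gene start in GENCODE for Jund, Fosl2, Batf3 and Atf3. The windows of Fosl2, Batf3 and Atf3 lay inside the annotated gene, so their results hold for the RefSeq start only, as do those of Jund. The AP-1 motif TGACTCA was in none of the 9 and in 4.46% of the 32851 mouse promoters, and exact TGACGTCA was in none of the 9 and in 1.55% of all. With at most 1 mismatch, a class that includes the exact motif, TGACGTCA matched 10.6% of all promoters and 3 members. The matched letters were TGACATCA 45 to 38 bases before the Jun start, TGACGACA 129 to 122 bases before the Fos start and TTACGTCA 10 to 3 bases before the Atf3 start. TATAAA matched 12.4% of all promoters and, among the members, that of Fos, 33 to 28 bases before its start. The CArG box, bound by serum response factor, matched 1.47% of all and no member. These results hold for the 250 bases only, and sites farther upstream or with more mismatches were not searched. The windows shown for Junb and Batf held no match to any of the 5 motifs.

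Per unit of length, Jund was the most abundant member in every library, and the immediate early FOS genes were scarce. Over the 16 libraries, median levels ran from 114 RPKM for Jund through 31.8 for Junb, 27.7 for Jun, 16.7 for Batf, 6.19 for Fosl2, 1.45 for Fos, 1.34 for Atf3 and 0.485 for Fosb to 0.0658 for Batf3. Jund stood apart from the next member, its lowest library at 63.8 RPKM and the highest Junb library at 63.5 RPKM, while the ranges of all other neighbors in this order overlapped. Jund made up 46.8% to 76.0% of the summed RPKM of the 3 JUN genes in CD4 libraries and 56.7% to 75.8% in CD8 libraries. Both CD4 extremes were in libraries with few detected genes, and the other CD4 libraries ran from 49.8% to 63.3%. Fosl2 made up 50.1% or more of the summed RPKM of Fos, Fosb and Fosl2 in each of the 16 libraries.

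**Figure D1:**
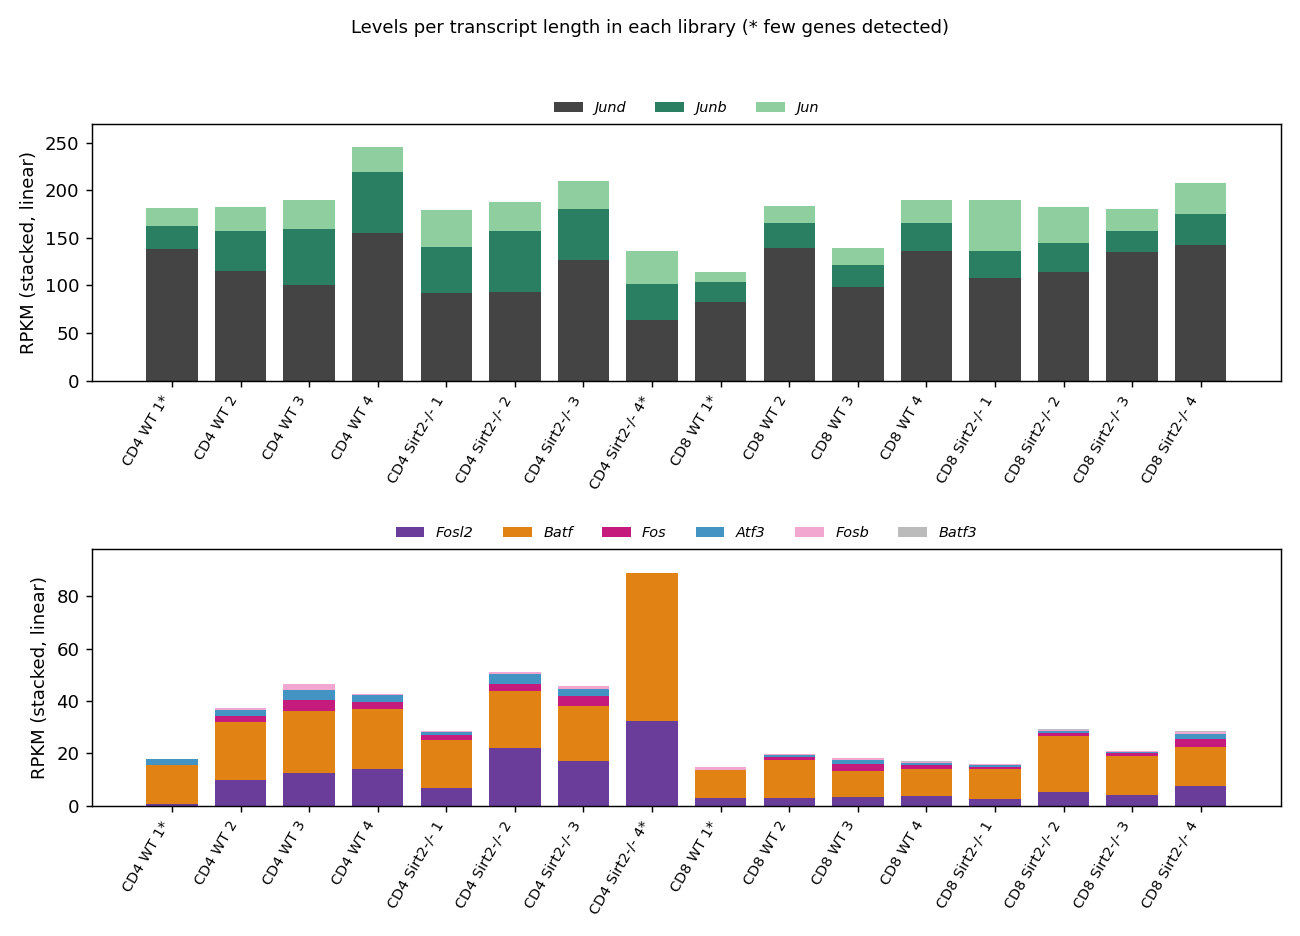
RPKM of the members stacked by library, with the 3 JUN genes in the upper panel and the other 6 members in the lower panel, and an asterisk on the 3 libraries with few detected genes. Jund fills most of the upper bars, and Batf and Fosl2 fill most of the lower bars, which reach their highest total in CD4 Sirt2-/- replicate 4.

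Jun encodes c-Jun, the JUN protein that the JNK kinases phosphorylate (ENSMUSG00000052684.4, GRCm38 chr4:95049034-95052222, minus strand). In CD8 TILs, Jun was at 31.4, 57.5, 56.6 and 77.6 CPM in WT replicates 1 to 4 and at 172, 122, 74.4 and 104 CPM in Sirt2-/- replicates 1 to 4. Of the Sirt2-/- libraries, 3 lay above all 4 WT libraries, and Sirt2-/- replicate 3 lay below the highest of them. In CD4 TILs, Jun was at 62.03, 78.7, 95.2 and 84.5 CPM in WT and at 124, 99.3, 92.3 and 112 CPM in Sirt2-/- libraries. Those ranges overlapped through CD4 WT replicate 3 and Sirt2-/- replicate 3. The opposite-strand gene Junos shares 232 exonic bases with Jun and had a mean of 31.8 counts a library against 3954 for Jun, and reads from that stretch cannot be assigned without the strand setting used in counting.

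Junb encodes JunB, a JUN protein with weaker transactivation than c-Jun in many settings (ENSMUSG00000052837.6, chr8:84974484-84978718, minus strand). CD4 libraries held 55.6, 98.4, 136 and 146 CPM in WT and 112, 146, 124 and 85.9 CPM in Sirt2-/- mice. CD8 libraries held 49.8, 60.8, 53.0 and 65.9 CPM in WT and 65.3, 69.9, 50.9 and 76.4 CPM in Sirt2-/- mice. The CD8 libraries were thus the lower ones in both genotypes, with no overlap in Sirt2-/- mice and with an overlap in WT that came from CD4 WT replicate 1 alone. Prdx2, on the other strand, shares 173 exonic bases with Junb and had a mean of 2154 counts against 3733 for Junb, and the same limit holds.

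Jund encodes JunD, the JUN protein that resting cells already hold (ENSMUSG00000071076.6, chr8:70698949-70700616, plus strand). It was at 230.0, 192, 168 and 259 CPM in CD4 WT, 154, 156, 211 and 106 in CD4 Sirt2-/-, 137, 232, 164 and 228 in CD8 WT and 179.9, 189.9, 225 and 237 in CD8 Sirt2-/- libraries. All 4 groups overlapped, and the mean ± SD ran only from 157 ± 42.8 to 212 ± 40.4 CPM (n = 4). The annotated antisense gene Gm11175 covers 877 bases of Jund with a mean of 75.8 counts against 8026, with the same limit.

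**Figure D2:**
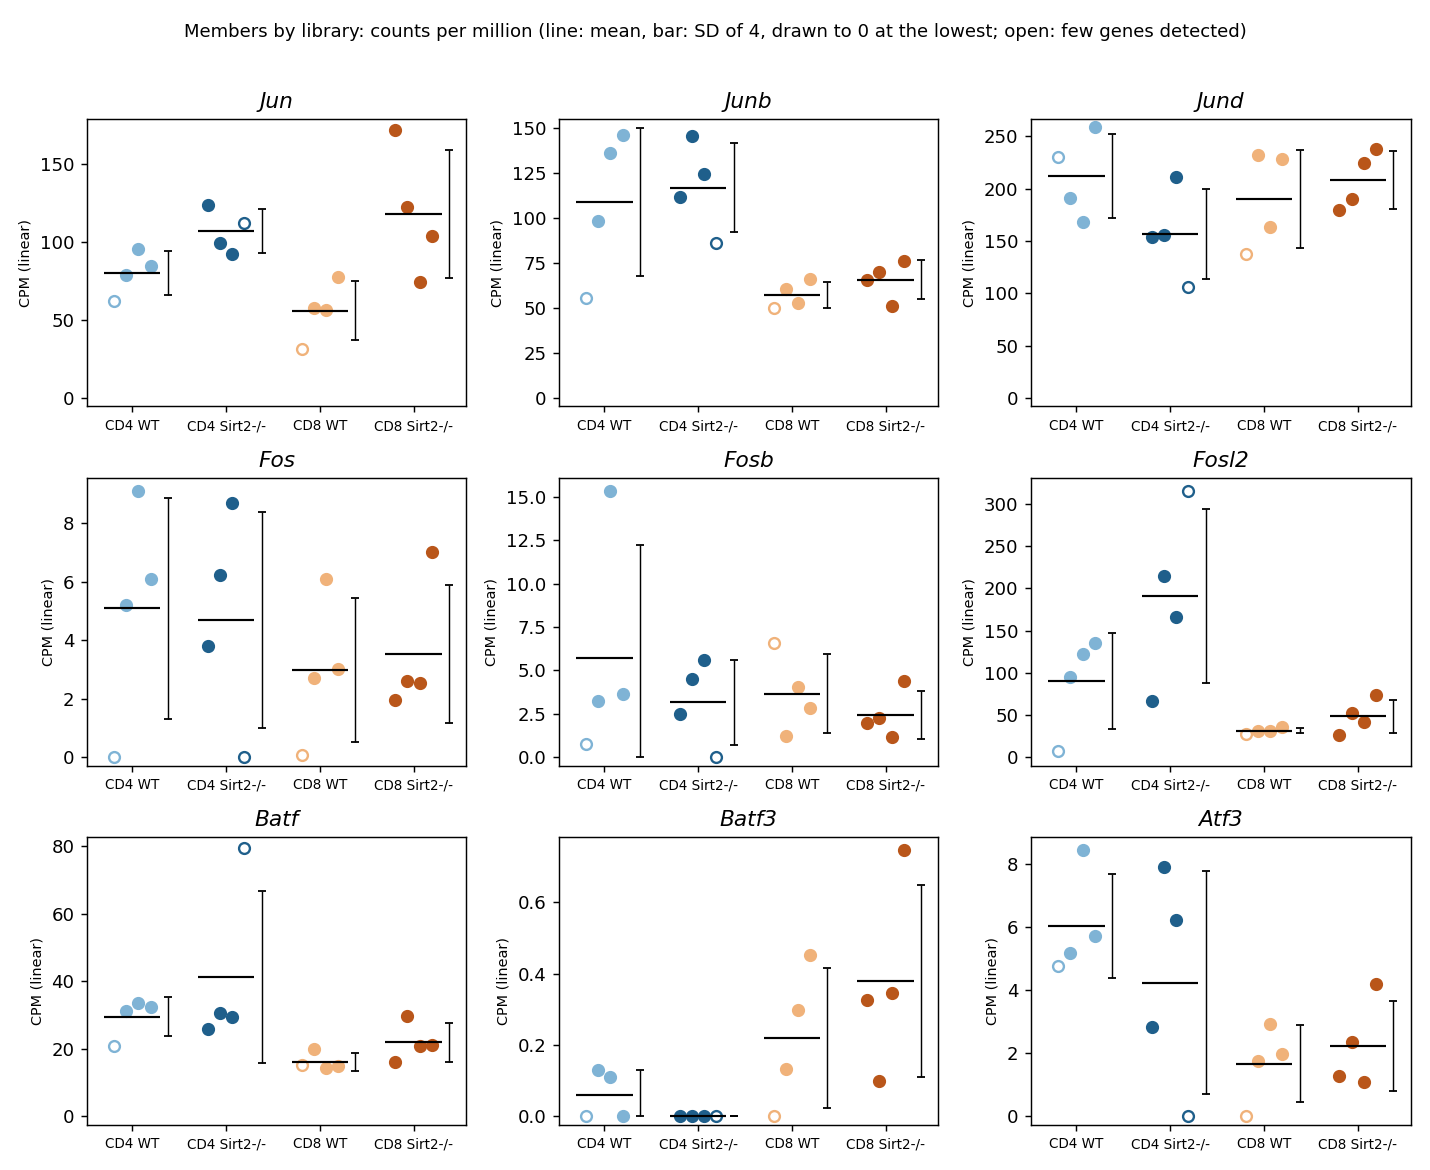
CPM on a linear axis for each of the 9 members, 1 point per library in 4 groups, with the group mean (line) and SD (bar, n = 4, drawn no lower than 0) and open points for the 3 libraries with few detected genes. Junb, Fosl2, Batf and Atf3 sit lower in most CD8 than CD4 libraries, Jun sits highest in CD8 Sirt2-/- replicate 1, and open points hold the lowest Fos values and both extremes of Fosl2.

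Fos encodes c-Fos, an immediate early protein whose RNA lasts minutes after a stimulus (ENSMUSG00000021250.13, chr12:85473890-85477273, plus strand). Its levels were low, at 0, 5.19, 9.10 and 6.10 CPM in CD4 WT, 3.82, 6.22, 8.70 and 0.0179 in CD4 Sirt2-/-, 0.0908, 2.70, 6.09 and 3.02 in CD8 WT and 1.95, 2.62, 2.53 and 7.03 in CD8 Sirt2-/- libraries. The 3 libraries with few detected genes held 0, 1 and 3 Fos counts while the other 13 held 96 to 408 counts, and the count of 0 among 28000949 allows up to 0.107 CPM by counting error alone. Fosb, a second immediate early FOS gene (ENSMUSG00000003545.3, chr7:19302696-19310051, minus strand), had counts of 0 to 687 and was at 0.765 to 15.3 CPM in CD4 WT, 0 to 5.63 in CD4 Sirt2-/-, 1.22 to 6.57 in CD8 WT and 1.16 to 4.41 in CD8 Sirt2-/- libraries. The groups overlapped for both genes, and no Fosb count in CD4 Sirt2-/- replicate 4 allows up to 0.0481 CPM.

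Fosl2 encodes FRA2, a FOS protein with a long-lived transcript (ENSMUSG00000029135.10, chr5:32135801-32157842, plus strand), and it spread more widely among CD4 libraries than any other member with over 100 counts in all libraries. It was at 7.89, 95.5, 122 and 136 CPM in CD4 WT and 67.1, 215, 166 and 315 CPM in CD4 Sirt2-/- libraries. In CD8 libraries it was at 28.1, 30.9, 31.5 and 35.7 CPM in WT and 26.5, 52.8, 41.3 and 73.5 CPM in Sirt2-/- mice. The lowest and the highest values, from 237 and 17596 counts, were both in libraries with few detected genes, and without those 3 libraries the WT CD4 libraries all lay above the WT CD8 libraries.

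Batf encodes a partner of JUN proteins that is needed for effector and regulatory T cell programs (ENSMUSG00000034266.6, chr12:85686669-85709087, plus strand). It was at 20.9, 31.3, 33.4 and 32.3 CPM in CD4 WT and 15.3, 20.05, 14.4 and 14.8 CPM in CD8 WT libraries, with no overlap. In Sirt2-/- mice it was at 25.8, 30.6, 29.5 and 79.3 CPM in CD4 and 16.01, 29.6, 20.9 and 21.01 CPM in CD8 libraries, where CD8 replicate 2 overlapped the CD4 range. Batf3, known best for the development of cross-presenting dendritic cells (ENSMUSG00000026630.9, chr1:191097847-191108945, plus strand), had 0 to 37 counts a library. It had no count in the 4 CD4 Sirt2-/- libraries, 11 in all in CD4 WT, 32 in CD8 WT and 74 in CD8 Sirt2-/- libraries. Pooled over total counts without TMM scaling, the CD8 Sirt2-/- libraries were at 0.387 CPM. The limit of 3 counts over the CD4 Sirt2-/- group was 0.0157 CPM. The ratio was 24.6-fold, or 16.6-fold without CD4 replicate 4. It allows for counting error in the CD4 libraries only, not for spread between libraries. Single CD8 Sirt2-/- libraries ran from 0.0988 CPM (4 counts) to 0.745 CPM (37 counts), against limits of 0.0481 to 0.0738 CPM for single CD4 Sirt2-/- libraries. The summed level of 10 myeloid markers was 6.85 to 32.3 CPM in CD4 Sirt2-/- and 9.57 to 37.4 CPM in CD8 Sirt2-/- libraries, with 2 to 10 and with 10 of the 10 markers counted and with its maximum in CD8 replicate 4, the library with the most Batf3 counts. The part of such cells in the Batf3 counts was not tested.

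Atf3 encodes a stress-induced ATF protein that can repress as a homodimer (ENSMUSG00000026628.13, chr1:191170296-191218039, minus strand). It was at 4.76, 5.19, 8.43 and 5.72 CPM in CD4 WT and at 0, 1.77, 2.94 and 1.98 CPM in CD8 WT libraries, with no overlap, also at the 0.0930 CPM that the count of 0 allows. In Sirt2-/- mice it was at 2.83, 7.92, 6.21 and 0.0179 CPM in CD4 and 1.28, 2.37, 1.09 and 4.19 CPM in CD8 libraries, and the ranges overlapped.

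CD8 and CD4 TILs of WT mice were compared to show how the family is set in the 2 lineages before the genotype is considered. Batf and Junb were lower in CD8 TILs, and the other 6 members tested had negative differences that did not pass. Batf differed by a log2 fold change of -0.95 ± 0.24 (SE, n = 4 per group), 29.5 ± 5.81 against 16.1 ± 2.64 CPM (SD), with an adjusted p of 0.0275 in edgeR's quasi-likelihood test. Junb differed by -1.01 ± 0.27, 109 ± 41.1 against 57.4 ± 7.32 CPM, with an adjusted p of 0.0341. The 2 members called were 2 of 8 tested, while 11.9% of all 14892 genes tested were called, 728 higher and 1037 lower in CD8 TILs. The member median was -0.91 against -0.02 over all genes tested. Atf3 (-1.93 ± 1.06) and Batf did not overlap between the groups, as was so in the lower direction for 10% of genes tested, and the Atf3 adjusted p was 0.308. In bulk RNA, fewer cells of one type and less RNA per cell cannot be told apart.

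Both WT calls were close to the threshold. In WT mice, deviations of CD4 and CD8 libraries of the same number correlated weakly, at 0.126 to 0.246. With the replicate number as a block in edgeR, Batf was at -0.93 ± 0.23 (adjusted p = 0.0553) and Junb at -0.91 ± 0.23 (adjusted p = 0.0592). Neither was called, while 10.9% of genes were. Leaving out any 1 of the 8 libraries other than CD4 WT replicate 1 likewise ended both calls, with adjusted p up to 0.0994 for Batf and 0.121 for Junb. Without the 2 WT libraries with few detected genes, 5 of 8 members were called lower in CD8 TILs against 28% of 15694 genes called. These were Fosl2 at -1.85 ± 0.15 (adjusted p = 1.18e-05), Junb at -1.09 ± 0.16 (adjusted p = 0.000537), Batf at -0.99 ± 0.17 (adjusted p = 0.00191), Atf3 at -1.54 ± 0.36 (adjusted p = 0.00891) and Jun at -0.44 ± 0.15 (adjusted p = 0.0475). With all 8 libraries, Fosl2 was at -1.61 ± 0.60 and adjusted p = 0.117, its CD4 WT replicate 1 value lying below every CD8 WT library. Jund was at -0.23 ± 0.19 with all 8 libraries and 0.01 ± 0.18 without the 2.

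In Sirt2-/- mice the same comparison called 0 of 8 members tested by edgeR's quasi-likelihood test, while 2.24% of 15787 genes were called, 145 higher and 209 lower in CD8 TILs. Fosl2 (-1.98 ± 0.47, adjusted p = 0.0803) and Junb (-0.85 ± 0.20, adjusted p = 0.0819) had the smallest p-values of the members. These 2 of 8 members, and 1842 of 15787 genes, had an unadjusted p below 0.05. DESeq2 called both of them among 1339 of 15787 genes. Only Junb did not overlap in the lower direction, as did 6.22% of genes tested. Batf was at -0.92 ± 0.44 (adjusted p = 0.492). Without CD4 Sirt2-/- replicate 4, 25.4% of 16703 genes were called and 3 of 9 members were. Junb (-0.99 ± 0.14, adjusted p = 0.000697) and Fosl2 (-1.65 ± 0.46, adjusted p = 0.0389) were then lower in CD8 TILs. Batf3, the other member called, had no count in the CD4 libraries and passed the count filter through the CD8 libraries alone. It was not tested with all libraries, and its call is not read as a difference between the cell types. Batf was then at -0.42 ± 0.19 (adjusted p = 0.134). The CD4 TILs also held Foxp3, the factor of regulatory T cells, at 306 to 671 CPM in Sirt2-/- and 359 to 924 CPM in WT libraries, against 0.969 to 6.77 CPM in CD8 libraries, and the part of regulatory T cells in the Batf, Junb and Fosl2 differences was not tested.

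**Figure D3:**
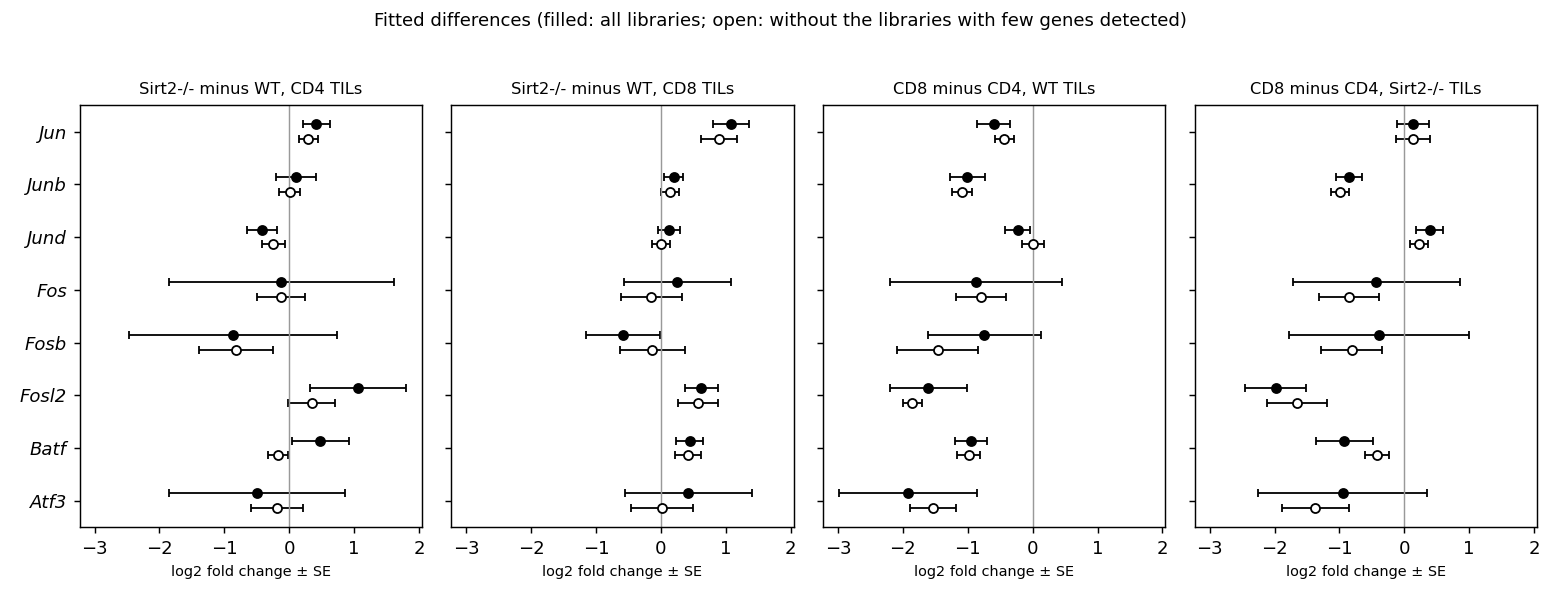
Log2 fold change ± SE of 8 members in 4 comparisons, from fits with all libraries (filled) and without the 3 libraries with few detected genes (open); Batf3 is left out because groups were at 0 counts. Junb, Fosl2, Batf and Atf3 lie left of 0 in both comparisons of CD8 with CD4 TILs, and Jun lies farthest right in CD8 TILs between genotypes.

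Loss of SIRT2 was compared with WT within each cell type. In CD8 TILs, 8 of 9 members had higher fitted levels in Sirt2-/- mice in the fit with all libraries, and none was called. Jun was at 118 ± 40.9 CPM against 55.8 ± 18.9 in WT (SD, n = 4), a log2 fold change of 1.08 ± 0.28 with an unadjusted p of 0.0027 that ranked 31 of 15302 genes and an adjusted p of 0.986 in edgeR's quasi-likelihood test. That test called 1 gene, Sirt2 (0.00654%), and 579 genes had an unadjusted p below 0.05. DESeq2 called 28 genes (0.183%), and Jun was one of them at 1.09 ± 0.28 with an adjusted p of 0.0438, so the Jun call depends on the test. Without CD8 Sirt2-/- replicate 1, which held the most Jun, the log2 fold change was 0.86 ± 0.27, and without CD8 WT replicate 1, which held the least, it was 0.89 ± 0.28. Over the 8 fits that each left out 1 library it ran from 0.86 to 1.29, with adjusted p from 0.457 to 0.9998.

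The remaining members differed less between CD8 groups. Fosl2 was at 0.62 ± 0.25 (unadjusted p = 0.0322) and Batf at 0.44 ± 0.21 (unadjusted p = 0.0548), with 48.5 ± 19.8 against 31.5 ± 3.16 CPM and 21.9 ± 5.66 against 16.1 ± 2.64 CPM. Junb was at 0.19 ± 0.14, Jund at 0.13 ± 0.17 and Fosb at -0.58 ± 0.57, and the SE of Fos, Batf3 and Atf3 were 0.83 to 1.11. No member's groups failed to overlap, as 2.95% of genes tested did in either direction. With all libraries the member median was 0.42, the value of Atf3, against 0.01 over all genes tested. Without CD8 WT replicate 1, which had few detected genes, Fosl2 was at 0.58, Batf at 0.42, Batf3 at 0.37 and Junb at 0.14. Atf3 was then at 0.012, Jund at 0.0070, Fos at -0.15 and Fosb at -0.13. The summed level of the 10 myeloid markers was 9.57 to 37.4 CPM in CD8 Sirt2-/- and 2.24 to 9.07 CPM in CD8 WT libraries, with no overlap, with all 10 counted in each Sirt2-/- library and 2 to 10 in a WT library. That of 6 stroma markers was 40.6 to 105 CPM against 36.2 to 48.3 CPM, with overlap. It rested mostly on Pecam1, which alone was at 39.6 to 78.4 CPM against 36.2 to 46.4 CPM, so it is a weak measure of stroma cells. The part of myeloid or stroma cells in the Jun, Fosl2 and other member differences was not tested. Jun made up 12.9% to 28.3% of the summed RPKM of the 3 JUN genes in CD8 Sirt2-/- and 8.66% to 12.8% in CD8 WT libraries. The summed level of 15 other immediate early genes was 787 to 1045 CPM in CD8 Sirt2-/- and 766 to 967 CPM in CD8 WT libraries, highest in the Sirt2-/- library with the most Jun.

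In CD4 TILs, edgeR called 0 of 15070 genes (0%) and 0 of 8 members between genotypes, with 190 genes and no member at an unadjusted p below 0.05, while DESeq2 called 7 genes and limma with sample weights 4, none a member. Jun was at 0.42 ± 0.21 (107 ± 13.9 against 80.1 ± 13.9 CPM), Jund at -0.43 ± 0.23, Junb at 0.10 ± 0.31, Batf at 0.48 ± 0.44 and Fosl2 at 1.07 ± 0.74. With all libraries, all groups overlapped, whereas 3.13% of genes tested did not in either direction. Without the libraries with few detected genes, Batf did not overlap, at 25.8 to 30.6 CPM in Sirt2-/- and 31.3 to 33.4 CPM in WT (n = 3). The share of all genes was not taken for that setting. The Fosl2 and Batf log2 fold changes rested on CD4 Sirt2-/- replicate 4 and CD4 WT replicate 1, and without both they were 0.34 ± 0.36 and -0.17 ± 0.16. Heat shock genes summed to 8970 CPM in that Sirt2-/- library and to 3803 to 4747 CPM in the other 7 CD4 libraries. The 7 melanoma genes summed to 81.5 and 98.5 CPM in these 2 libraries and to 5.50 to 13.2 CPM in the other 6. In that Sirt2-/- library only 2 of the 7 had counts, Mitf (54.0 CPM) and Dct (27.5 CPM), whereas all 7 did in CD4 WT replicate 1. The part of heat shock or melanoma genes in the members' values was not tested. The median over all genes tested was -0.11 in this comparison, 0.16 between the Sirt2-/- cell types and 0.14 in the interaction, and member differences there are relative to it.

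Whether the genotype difference itself differed between CD8 and CD4 TILs was tested as an interaction. No gene of 17270 (0%) and none of 9 members passed, with 342 genes at an unadjusted p below 0.05, 1 of them a member (Batf3, at 0 in CD4 Sirt2-/- libraries), and 2 genes called by DESeq2. The difference of log2 fold changes was 0.67 ± 0.37 for Jun, 0.57 ± 0.30 for Jund, 0.09 ± 0.35 for Junb, -0.05 ± 0.54 for Batf and -0.46 ± 0.85 for Fosl2. A larger Jun difference in CD8 than in CD4 TILs was therefore not shown.

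Some pairs of members varied together among libraries of a group. After the group mean was taken from log2(CPM + 1), Fos and Atf3 had a Spearman rho of 0.86 over 16 libraries and 0.80 over the 13 with more detected genes, and Fos and Fosb had 0.66 and 0.74. Junb and Fosl2 had 0.58 and 0.70, and Fosl2 and Batf had 0.69 and 0.57. Junb also had 0.71 and 0.47 with Fos and 0.71 and 0.53 with Atf3, but 0.16 and 0.26 with Batf. The pairs thus did not part into separate sets. The rho of Jun with the other members lay between -0.10 and 0.41 over 16 and between -0.41 and 0.15 over 13 libraries. These values describe libraries that share depth and gene detection within a column, and they carry no test.

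**Figure D4:**
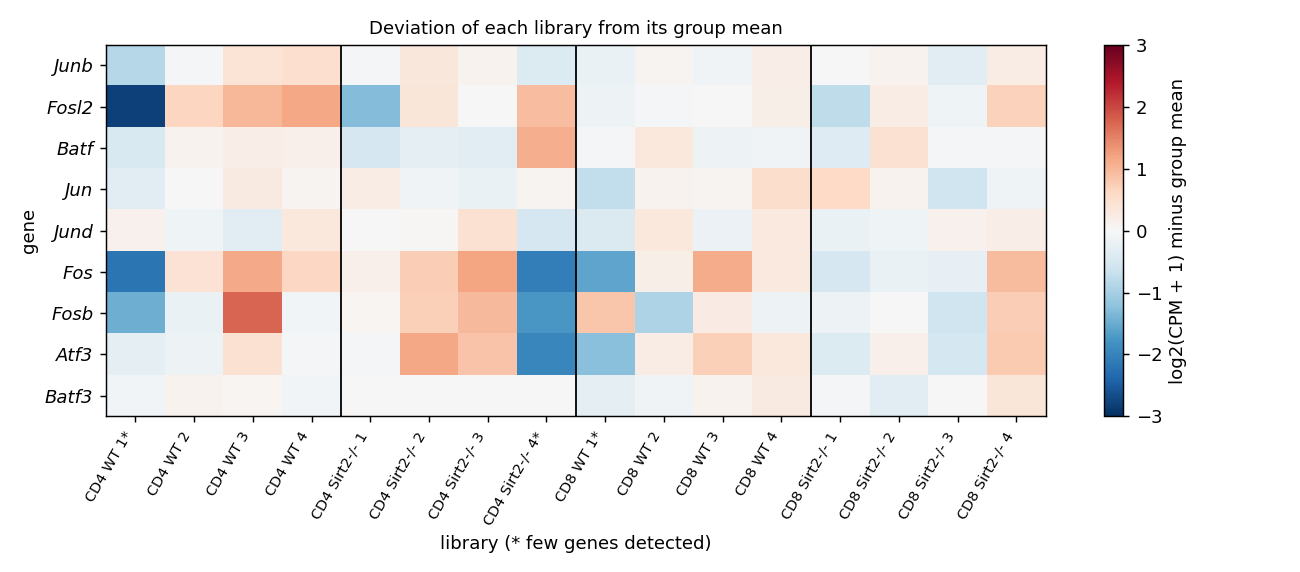
Deviation of log2(CPM + 1) from the group mean for each member (rows) and library (columns), on a scale from blue (below) to red (above), with lines between groups and asterisks on the 3 libraries with few detected genes. Fos lies lowest in the 3 marked libraries and Atf3 in 2 of them, and Fosl2 is lowest in CD4 WT replicate 1.

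Among 9738 genes with a mean of at least 5 CPM, the genes most like Jun in these deviations were Tgtp2 (rho 0.95) and Irgm2 (0.89), both interferon-inducible GTPases. For Junb they were Slc3a2 and Klra1 (0.88 each), for Jund Arf6 (0.91) and Rad54l2 (0.90), for Fos Rhoq (0.90) and Lyst (0.89) and for Fosb Trat1 (0.87) and Alg13 (0.86). Fosl2 was most like Babam2 (0.93) and Sec22a (0.92), Batf most like Tshz3 and Fes (0.89 each), Batf3 most like Srgn and Dusp10 (0.75 each) and Atf3 most like Irf5 and Nr4a1 (0.94 each). These are the highest of 9738 values over 16 libraries and carry no test, and the leading pair of genes was a different one for all 9 members over the 13 libraries with more detected genes.

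Genes around the family were read from fixed lists. Of 7 partner factors, Irf4, the partner of BATF, was lower in CD8 than in CD4 TILs in WT (-1.36 ± 0.25, adjusted p = 0.0052) and in Sirt2-/- mice (-1.0 ± 0.20, adjusted p = 0.0418). Ets1, a lymphocyte factor that binds beside AP-1, was lower in both (-1.14 ± 0.14 and -1.01 ± 0.12), and Runx3, the factor of the CD8 lineage, was higher in both (0.92 ± 0.12 and 0.68 ± 0.13). Irf8 was higher in Sirt2-/- CD8 TILs (1.40 ± 0.19). The list thus had 1 gene called higher and 2 lower in WT and 2 and 2 in Sirt2-/- mice. Upstream, 0 of 20 ERK and JNK cascade genes were called in WT and 1 in Sirt2-/- mice, where Map3k1, a kinase above JNK, was lower in CD8 TILs (-0.67 ± 0.11, adjusted p = 0.0175).

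Of 18 T cell genes with known AP-1, NFAT and AP-1 or BATF and IRF4 input, 16 were tested between cell types, with 4 called higher and 7 lower in CD8 TILs of WT mice and 1 higher and 3 lower in Sirt2-/- mice. In WT the 4 with the greatest difference were Il21 (-6.08 ± 1.503, from 2.46 ± 1.91 CPM in CD4 and 0.0340 ± 0.0403 CPM in CD8 libraries), Ctla4 (-4.69 ± 0.25), Icos (-3.09 ± 0.16) and Il2ra (-2.91 ± 0.25), which encode a helper cytokine, an inhibitory receptor, a costimulatory receptor and the interleukin-2 receptor alpha chain. In Sirt2-/- mice Ctla4 (-4.56 ± 0.50), Il2ra (-2.86 ± 0.35) and Icos (-2.52 ± 0.36) were lower and Fasl, the Fas ligand gene, was higher (1.53 ± 0.27). Of these genes, Ctla4, Il2ra and Icos are also expressed in regulatory T cells. The other 12 AP-1 type leucine zipper genes had no call in any of the 5 comparisons, and the 2 most abundant were Atf4, a stress response factor, at 126 to 152 CPM, and Bach2, a repressor that competes for AP-1 sites, at 92.2 to 198 CPM as group means.

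Of 15 immediate early genes outside the family, Myc (1.63 ± 0.14) and Dusp2 (1.40 ± 0.37) were higher and Dusp1, a phosphatase of MAP kinases, was lower (-2.21 ± 0.37) in WT CD8 TILs, and Dusp1 was lower in Sirt2-/- CD8 TILs (-1.80 ± 0.35). Of 10 heat shock genes, 5 were higher and 1 lower in WT CD8 TILs, with Hspa1b at -1.85 ± 0.41, Hspd1 at 1.23 ± 0.18, Hspe1 at 0.86 ± 0.14 and Hspa8 at 0.86 ± 0.17. In Sirt2-/- CD8 TILs, Hspe1 (1.15 ± 0.14) and Hspd1 (1.08 ± 0.19) were higher. Between genotypes and in the interaction none of these lists had a called gene. In CD8 TILs, 15 of the 15 tested genes with AP-1 input had a higher fitted level in Sirt2-/- mice, with a median of 0.28 against 0.01 over all genes tested, while the lists did not all lie on one side. The lists were read only from fits with all libraries, which include CD8 WT replicate 1 with its few detected genes. The immediate early list had 11 of 15 higher with a median of 0.25, the ERK and JNK list 12 of 20 with 0.05, the partner list 3 of 7 with -0.02, the other leucine zipper list 4 of 11 with -0.07 and the heat shock list 3 of 10 with -0.05. The summed level of the myeloid markers, which did not overlap between these groups, was higher along with the AP-1 input genes. Most single myeloid markers did overlap. The part of myeloid cells in the median of 0.28 was not tested.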

How the data were processed

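Raw gene counts for 16 RNA-seq libraries were deposited by the authors as 1 table on GENCODE gene identifiers. The submitters' processing notes name STAR, HTSeq and mm10, and the strand setting and versions are not given in the sources used here. Libraries were made with a stranded, ribosomal RNA-depleted kit.

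Groups came from the sample labels. All 55450 identifiers matched GENCODE M21 (GRCm38), which gave coordinates and exon lengths. Counts were tested with edgeR 4.0.16 (R 4.3.3), TMM scaling, filterByExpr and the robust quasi-likelihood F test, in separate fits for 4 comparisons and 1 fit of all libraries for the interaction, with Benjamini-Hochberg adjustment over all genes tested and a threshold of 0.05. SE are the log2 fold change over the root of F. DESeq2 1.42.0 and limma 3.58.1 (voom with sample quality weights) were alternatives. The scripts were tested on simulated data. Each p-value comes from a group difference set against the spread between these libraries.

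All 9 members are named. From each list, called genes are named, at most 4 a list and comparison by size, and the 2 most abundant where none was called. The members and lists were chosen with earlier results of these data known. Genes most like a member were ranked by Spearman rho of log2(CPM + 1) deviations from group means, 1 being the pseudocount. No count column lacked a sample. Promoters were taken from RefSeq.

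Replicate numbers are in the labels. Deviations of same-numbered CD4 and CD8 libraries correlated at 0.126 to 0.246 over 9743 genes in WT mice, above 0.1 in all 4 pairs. By that rule, from the data only, these pairs were treated as paired in the alternative fit with a replicate block. The main fits held no block, so the main WT calls do not use the pairing. In Sirt2-/- mice 3 of 4 pairs were below 0.1 and the pair of replicate 1 was at 0.262. Between genotypes all pairs were below 0.1.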

Additional observations from a re-analysis of the deposited data

Results flagged for a closer look

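Of 35 sets of 4 member CPM values that varied within a group, 4 held a library far from the other 3 by Dixon's test, where chance gives about 1 in 20. Fos was high in CD8 Sirt2-/- replicate 4 (7.03 CPM), which also had the highest myeloid marker sum (37.4 CPM) of the 16 libraries, and its part in that value was not tested. Batf was high in CD4 Sirt2-/- replicate 4 (79.3 CPM) and in CD8 WT replicate 2 (20.05 CPM), and it was low in CD4 WT replicate 1 (20.9 CPM). CD4 Sirt2-/- replicate 4 and CD4 WT replicate 1 are among the 3 libraries with few detected genes.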

How the results depend on the processing

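The sign was the same in all fits run for Jun, Junb, Fosl2, Batf and Atf3 between cell types in WT and for Junb, Fosl2, Batf and Atf3 in Sirt2-/- mice. The cause of the changes below was not tested. Between cell types, counts of called genes changed most when the libraries with few detected genes were left out or down-weighted, and between genotypes and in the interaction they changed most with DESeq2. Between WT cell types, 1765 genes and 2 members became 2651 genes with DESeq2, 5481 and 6 with limma and sample weights, 811 and 1 with all 16 libraries in 1 model, 4394 and 5 without the few-gene libraries, and 1 member with no count filter. Between Sirt2-/- cell types, 354 genes and 0 members became 1339 and 2 with DESeq2, 4474 and 4 with limma, 907 and 1 with at least 10 counts in every library, 781 genes in 1 model of 16, and 4250 and 3 without replicate 4 of CD4. Of those 3, Batf3 passed the count filter through its CD8 counts alone. In CD8 TILs between genotypes, 1 gene became 28 with DESeq2 (1 member, Jun), 4 with limma, 5 with no filter and 7 without the few-gene library. In CD4 TILs, 0 became 7, 4 and 6 with DESeq2, limma and without those libraries, and the interaction gave 2 genes with DESeq2.

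With the replicate number as a block, the WT cell types had 1619 genes and 0 members called, the Sirt2-/- cell types 108 genes and 1 member (Fosl2, -1.88 ± 0.18, adjusted p = 0.0292) and CD8 TILs between genotypes 4 genes. Outside WT the pairing is by number only. With the block and without the few-gene libraries, a fit chosen after seeing the data, the counts were 4981 genes and 6 members in WT and 4524 and 4 in Sirt2-/- mice.

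Some uncalled differences changed sign, among them Fosb in CD8 TILs between genotypes (-0.58 as reported), Batf in CD4 TILs (0.48) and Fosl2 in the interaction (-0.46). With limma these were Fos (0.042) and Batf (-0.13) in CD4 TILs, Jund (-0.045) and Fosb (0.14) in CD8 TILs between genotypes, Jund between WT cell types (0.10), and Junb (-0.040) and Batf (0.43) in the interaction. With the block, Fos in CD4 TILs was 0.093, and Fos and Batf in the interaction were -0.11 and 0.081. With at least 10 counts in every library, Batf in the interaction was 0.055. Without the few-gene libraries, Batf in CD4 TILs was -0.17, Fos in CD8 TILs -0.15, Jund between WT cell types 0.0051 (0.011 with the block too), and Fos, Fosl2 and Batf in the interaction -0.027, 0.23 and 0.59.

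Over fits that each left out 1 library, CD8 genotype calls ran from 0 to 7 genes, WT cell type calls from 1022 to 2767 genes and 0 to 3 members (highest without CD4 WT replicate 1, over 1.5 times lower without CD4 WT replicate 3 or CD8 WT replicates 2, 3 or 4) and Sirt2-/- cell type calls from 111 to 4250 genes and 0 to 3 members (highest without CD4 replicate 4, 234 genes without CD4 replicate 1, and 111 to 151 without any other). Ranges that crossed 0 were Junb (-0.12 to 0.28), Fos (-0.60 to 0.33), Fosb (-1.29 to 0.33) and Batf (-0.028 to 0.64) in CD4 TILs, Fos (-0.33 to 0.87) and Atf3 (-0.082 to 0.84) in CD8 TILs, Fosb (-1.13 to 0.46) between WT cell types, Jun (-0.11 to 0.30), Fos (-0.999 to 0.047) and Fosb (-0.83 to 0.038) between Sirt2-/- cell types, and Junb (-0.077 to 0.32), Fos (-0.21 to 0.99), Fosb (-0.90 to 0.72) and Batf (-0.23 to 0.47) in the interaction. Depth limits Batf3, with at most 37 counts a library, and intervals from counts cover counting error only.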
